A study of Mus musculus with 4 samples.

Results

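miR-192, miR-194 and miR-215 are small RNAs made from 2 paralogous gene pairs, and their 7 mature arms are described here out of 1966 mouse miRNA arms listed in the count tables of cultured cortical neurons. The 7 arms are mmu-miR-192-5p, mmu-miR-192-3p, mmu-miR-194-5p, mmu-miR-194-1-3p, mmu-miR-194-2-3p, mmu-miR-215-5p and mmu-miR-215-3p, written below without the mouse prefix in most places. They were chosen by name, because miR-215-5p was higher in TgAD neurons in these same counts, and because the other arms share its seed or its gene cluster. The difference of miR-215-5p between the genotypes is therefore given as a description, with no test.

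Small RNA was sequenced from 2 libraries of WT neurons and 2 libraries of neurons carrying the APPswe and PSEN1dE9 transgenes (APP/PS1, here TgAD), all from the cortex of E16.5 embryos, kept 5 days in serum-free differentiating medium and not treated. APPswe is a mouse/human APP hybrid with the Swedish mutations, PSEN1dE9 is human presenilin 1 without an exon, and expression from their prion promoter is largely neuronal. Per the study's methods, the cells of each embryo were cultured separately and the embryos were genotyped afterwards, and the 2 libraries per genotype are biological replicates. The transgenes cannot be read from miRNA counts, so the genotype labels could not be checked in this way.

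The reads on miRNA summed to between 2070204 and 4811010 per library, and 849 to 936 arms had at least 1 read. Of the 9 arms taken as markers of neurons, 7 had reads, among them miR-128-3p with 43009 to 240174 reads, while miR-9-5p and miR-9-3p had none and miR-124-3p had 1 to 7 reads. miR-9-5p and miR-9-3p each lie at 3 loci, and all 13 arms at 3 or more loci were listed at 0 in every library, against 37.9% of 1548 arms at 1 locus with no overlapping hairpin. Of 46 arms at 2 loci 45.7% were at 0, and of 68 arms at 1 locus with another hairpin overlapping 82.4% were. How reads that fit several loci or overlapping hairpins were counted is not given in the sources used here. The summed level of the neuron markers was 26654 and 40398 CPM (reads scaled to a common library size, after TMM normalization) in WT and 64883 and 90341 CPM in TgAD, most of it miR-128-3p. Without miR-128-3p the sum was 7358 and 8349 CPM in WT and 5161 and 6283 CPM in TgAD, the reverse order of the genotypes. Of these markers miR-128-3p and miR-132-3p passed the cutoffs given below as higher in TgAD and miR-137-3p as lower. The summed level of 8 epithelial markers was 31.9 and 35.7 CPM in WT and 19.1 and 20.8 CPM in TgAD, with miR-203-3p at 0, and miR-122-5p, which defines hepatocytes, had no read in any library. The 5 blood cell markers, 3 of them with reads, summed to 1311 and 1333 CPM in WT and 648 and 960 CPM in TgAD. Nearly all of this was miR-451a, which passed the cutoffs as lower in TgAD. Without miR-451a the sum was 2.13 and 2.40 CPM in WT and 2.49 and 2.92 CPM in TgAD. The 5 markers of vessels and fibroblasts summed to 718 and 904 CPM in WT and 758 and 829 CPM in TgAD, most of it miR-143-3p. Both oligodendrocyte markers were at 0. The part of these differences in cell markers in the values below was not tested. Whether markers at 0 were lost in the counting was not tested either, so they do not show that a cell type was absent.

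A table of normalized values deposited with the counts went against their labels. Its column named WT_1 held the counts of the library labelled TgAD1 for 674 of 674 miRNA, its column WT_2 held those of WT1 and its column TR_1 those of TgAD2. Its column TR_2 matched no count table, with at most 4.45% of its values equal to those of any library. No column held the counts of the library labelled WT2. Over these 674 miRNA the Spearman rank correlation of WT1 with WT2 was 0.972 and that of TgAD1 with TgAD2 was 0.969. Between a WT and a TgAD library of the count tables it was 0.941 to 0.954. Column TR_2 correlated at 0.919 with WT1, 0.918 with WT2, 0.949 with TgAD1 and 0.952 with TgAD2. Since its values are in no count table, a change of labels alone does not give this column. Which labels are right was not tested. The values below follow the labels of the count tables, and those by the column names of the normalized table are given beside the ones that change.

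A mature miRNA guides a silencing complex to messenger RNAs through its seed, the bases 2 to 8 from its 5′ end, so arms with the same seed share most predicted targets. miR-192, miR-194 and miR-215 are known from the epithelium of gut, kidney and liver. In human cells the miR-194/miR-215 and miR-194/miR-192 clusters are transcribed in response to the tumour suppressor p53, and their products restrain the cell cycle and target Mdm2, the ligase that degrades p53.

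The mature sequences of the arms are shown because they set which arms could act on the same targets and which reads could be assigned to which gene. They are the RefSeq sequences on GRCm38.p6, 5′ to 3′, with the seed in capitals.
miR-215-5p: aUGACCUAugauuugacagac
miR-192-5p: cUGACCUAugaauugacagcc
miR-194-5p: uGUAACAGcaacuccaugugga
miR-215-3p: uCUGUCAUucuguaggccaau
miR-192-3p: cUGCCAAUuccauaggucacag
miR-194-1-3p: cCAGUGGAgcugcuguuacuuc
miR-194-2-3p: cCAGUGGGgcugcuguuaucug

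miR-215-5p and miR-192-5p carried the seed UGACCUA, and no other listed arm with a RefSeq sequence did. The arms were identical at 18 of 21 positions. Counted from 1 at the 5′ end and written with the base of miR-192-5p first, they differed by C1A, A12U and C20A. A read mapped without mismatch across any of these positions fits only 1 of the arms. Among the 1675 of 1966 listed arms with a RefSeq sequence, the seed GUAACAG belonged to miR-194-5p alone. miR-194-1-3p and miR-194-2-3p were identical at 18 of 22 positions and differed by A8G, C19U, U20C and C22G, the first of which lies in the seed.

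Mir194-1 (GRCm38, chr1:185313319-185313385) and Mir215 (chr1:185313581-185313692) lie on the plus strand, 195 bases apart. Both are inside an intron of 3 of the 5 annotated transcripts of Iars2, which encodes the mitochondrial isoleucyl-tRNA synthetase and is transcribed from the minus strand, and no Iars2 exon overlaps them. On their own strand, the annotated long noncoding RNA 2010103J01Rik spans both, with an exon over Mir215 and an intron over Mir194-1. Mir194-2 (chr19:6264643-6264728) and Mir192 (chr19:6264844-6264932) lie on the plus strand, 115 bases apart and between genes. Atg2a, an autophagy gene, ends 2307 bases before Mir194-2, and the noncoding Gm14963 lies 3862 bases beyond Mir192 on the minus strand.

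miR-194-5p is the only arm of the 7 made at both clusters. Its stretch in each hairpin is shown with 4 bases on either side in lower case and the arm in capitals, since these letters decide whether a read can be given to a cluster.
Mir194-1: cgggUGUAACAGCAACUCCAUGUGGAcugu
Mir194-2: ccucUGUAACAGCAACUCCAUGUGGAagug
The hairpins shared these 22 bases and no base directly before or after them, so a read of the mature arm cannot be given to chromosome 1 or to chromosome 19. The other 6 arms each lie at 1 locus with no other hairpin overlapping.

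**Figure D1:**
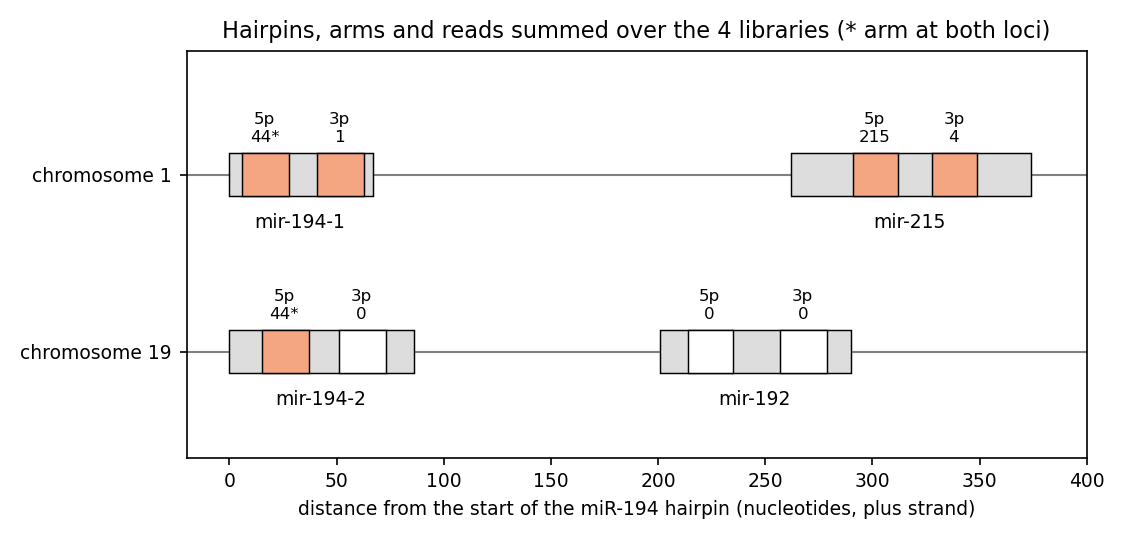
The 2 clusters to scale, with the distance from the start of each miR-194 hairpin in nucleotides on the horizontal axis, hairpins as grey boxes, arms with reads in orange and arms without in white, and the reads summed over the 4 libraries above each arm. miR-194-5p lies at both clusters and has the same 44 reads printed at each. miR-215-5p has the most reads of all, and the arms that lie at chromosome 19 alone hold 0.

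mmu-miR-215-5p, the 5′ arm of the chromosome 1 hairpin, had 12 reads in WT1, 13 in WT2, 95 in TgAD1 and 95 in TgAD2. Both TgAD libraries lay above both WT libraries, as for 30.6% of the 496 miRNA that passed the filter on low counts. The exact 95% Poisson intervals of the reads, which cover counting error only, were 6.20 to 21.0 and 6.92 to 22.2 in WT and 76.9 to 116 in each TgAD library. On the CPM scale the level was 5.11 and 4.46 in WT and 34.6 and 23.6 in TgAD, a mean of 4.79 ± 0.454 against 29.1 ± 7.78 (SD, n = 2). The fit gave a log2 fold change of 2.59 (SE, the standard error, 0.363), a fold of 6.03. The values that chose miR-215-5p are these, so they support nothing further.

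Ordered from the most positive log2 fold change down, miR-215-5p was number 4 of 496, and some miRNA fell by more. By level it was number 453 of 496 in WT neurons and number 314 in TgAD neurons, below the median tested level of 70.8 CPM in WT and 64.4 CPM in TgAD. Across the 11 other ways of normalizing, filtering, testing or leaving out a library that were set for it, its log2 fold change lay between 2.20 and 2.88. By the column names of the normalized table, the reads were 95 and 12 in WT and 95 and 3 in the transgenic columns, and the log2 fold change was -0.53. The 3 reads are those of column TR_2, among 1926952 recovered reads, while column WT_2, which held WT1, had 12 among 2069868. TR_2 has a transgenic name and ranked its miRNA more like the TgAD than the WT libraries, yet it lacked the higher miR-215-5p. Why it did was not tested. The direction given here thus rests on the labels of the count tables and on the libraries they hold, which leave out the data of TR_2.

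**Figure D2:**
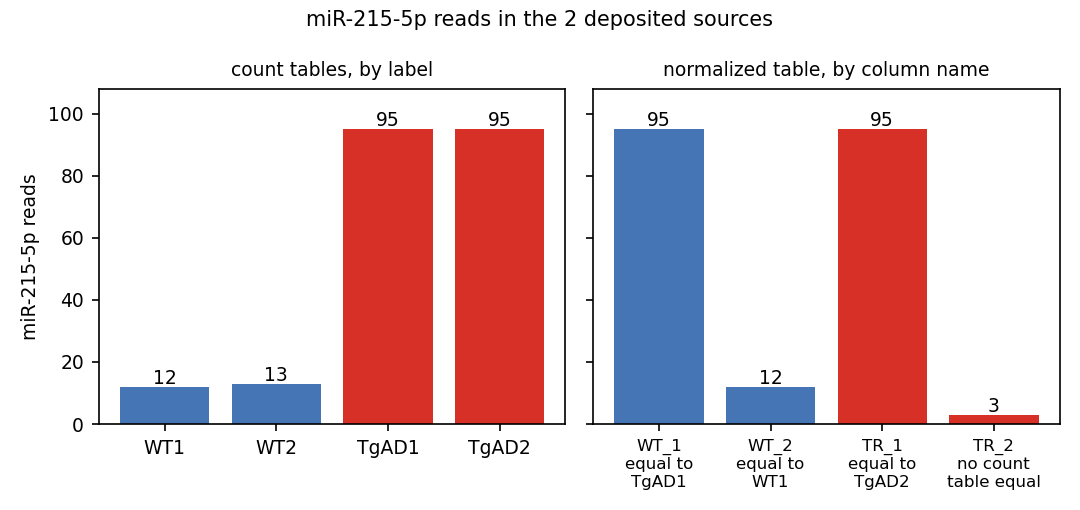
Reads of miR-215-5p (vertical axis, reads) by the labels of the 4 count tables on the left and by the column names of the normalized table on the right, with WT in blue and TgAD in red. The counts show 12 and 13 reads in WT against 95 in each TgAD library, while the named columns show 95 and 12 against 95 and 3.

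mmu-miR-192-5p, the arm with the same seed as miR-215-5p, had 0 reads in all 4 libraries. A count of 0 allows up to 3 reads, or 1.28, 1.03, 1.09 and 0.746 CPM in WT1, WT2, TgAD1 and TgAD2. With 3 reads per library taken in place of 0, miR-215-5p was at least 4.0-fold and 4.33-fold higher than miR-192-5p in the WT libraries and at least 31.7-fold higher in each TgAD library, bounds that leave out the counting error of the miR-215-5p reads themselves. Among listed arms with a RefSeq sequence, the reads with the seed UGACCUA were therefore those of miR-215-5p alone. The summed level of the seed over these arms was the level of miR-215-5p. No difference of miR-192-5p between the genotypes was detectable at this depth.

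mmu-miR-194-5p, whose gene copies accompany miR-215 and miR-192, had 8 reads in WT1, 12 in WT2, 15 in TgAD1 and 9 in TgAD2. The TgAD libraries held the highest and the lowest level, so the genotypes overlapped. The level was 3.4 and 4.12 CPM in WT and 5.47 and 2.24 CPM in TgAD, with means of 3.76 ± 0.507 and 3.85 ± 2.28 CPM (SD, n = 2). The log2 fold change was -0.04 (SE 0.567), and it did not pass edgeR's quasi-likelihood test (adjusted p = 0.976, Benjamini-Hochberg over 496 miRNA). Of those miRNA, 33.1% passed the cutoffs, a log2 fold change over 0.6 in size with an adjusted p under 0.1, and 15.7% passed as higher and 17.3% as lower.

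The sign of this value was set by single libraries. Without TgAD1 the log2 fold change of miR-194-5p was -0.84, without TgAD2 it was 0.55 and without WT2 it was 0.11. The adjusted p by edgeR's quasi-likelihood test or DESeq2 stayed between 0.410 and 0.997 over the 10 alternatives in which the arm could be tested. By the column names of the normalized table, miR-194-5p had 15 and 8 reads in WT and 9 and 3 in the transgenic columns, and it did not pass the filter on low counts there. With 8 to 15 reads per library in the count tables, the test does not show that miR-194-5p was equal in the genotypes.

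miR-215-5p and miR-194-5p were at like read numbers in WT and unlike ones in TgAD. miR-215-5p made up 60.0% (95% Wilson interval 38.7 to 78.1) of the reads of both arms in WT1 and 52.0% (33.5 to 70.0) in WT2. It made up 86.4% (78.7 to 91.6) in TgAD1 and 91.3% (84.4 to 95.4) in TgAD2. The ratio of miR-215-5p to miR-194-5p reads was 1.5 and 1.08 in WT and 6.33 and 10.6 in TgAD. These shares hold the reads that chose miR-215-5p and are given without a test. miR-194-5p lies at 2 loci and miR-215-5p at 1, and how reads that fit several loci were counted is not known. The shares and ratios therefore compare the arms only as counted.

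The 3p arms were near or at 0. mmu-miR-215-3p had 0 reads in each WT library, 1 in TgAD1 and 3 in TgAD2, all at or under the floor of 3 reads, so no fold is given. The 5p arm therefore held 12 of 12 and 13 of 13 of the reads of the Mir215 hairpin in WT, and 99.0% and 96.9% of them in TgAD1 and TgAD2. mmu-miR-194-1-3p had 1 read, in TgAD2, and miR-194-2-3p had none. miR-192-3p had none either. In all, 4 of the 7 arms had a read in some library, 2 of them (miR-215-5p and miR-194-5p) passed the filter on low counts, and 3 were at 0 throughout.

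No arm that marks the chromosome 19 cluster alone had a read. miR-192-5p, miR-192-3p and miR-194-2-3p can come only from there, and their reads summed to 0 in the 4 libraries, while the chromosome 1 cluster had reads of miR-215-5p, miR-215-3p and miR-194-1-3p. Among all arms at 1 locus with no overlapping hairpin, 586 of 1548 were also at 0.

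**Figure D3:**
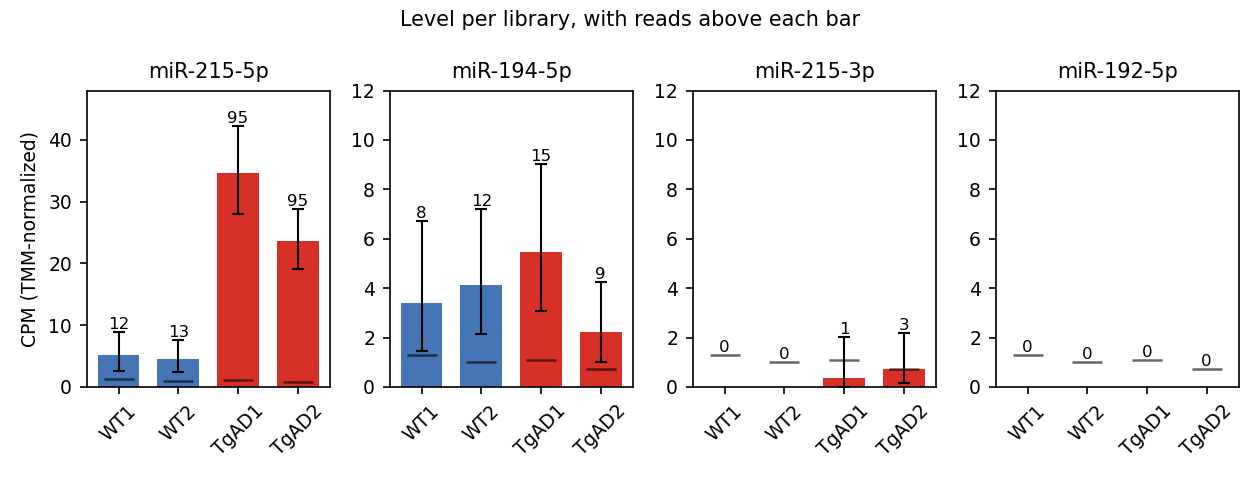
Level in CPM per library of 4 of the arms, with WT in blue, TgAD in red, the reads printed above each bar, exact 95% Poisson intervals as error bars where there were reads, a short line at the floor of 3 reads, and a wider axis range for miR-215-5p. miR-215-5p separates the genotypes (12 and 13 against 95 and 95 reads), miR-194-5p overlaps (8 and 12 against 15 and 9), and miR-215-3p and miR-192-5p hold 0 to 3 reads.

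The 5 tested miRNA whose profile over the 4 libraries was closest to that of miR-215-5p were found by the Euclidean distance of log2 CPM centred on each miRNA's mean. They were miR-7093-3p (distance 0.613), miR-129b-3p (0.709), miR-467d-5p (0.717), miR-6906-3p (0.781) and miR-330-5p (0.808). miR-7093-3p had 14 and 15 reads in WT and 64 and 96 in TgAD. miR-330-5p, the most abundant of them, had 853 and 1029 reads in WT and 3325 and 4296 in TgAD, a log2 fold change of 1.67. The other 3 had at most 6 reads in a WT library and 15 to 50 in a TgAD library, and miR-467d-5p, with 3 and 1 reads in WT, was at the floor there. Likeness to miR-215-5p fixes their direction, so it is not tested. miR-194-5p was number 266 of 495 by this distance, at 2.54.

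miR-215-5p holds 38.1% G and C. The median share of G and C was 52.2% in the miRNA called higher in TgAD (69 of 78 with a sequence), 42.1% in those called lower (81 of 86) and 47.8% in all tested (441 of 496). The part of base composition in the calls was not tested.

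**Figure D4:**
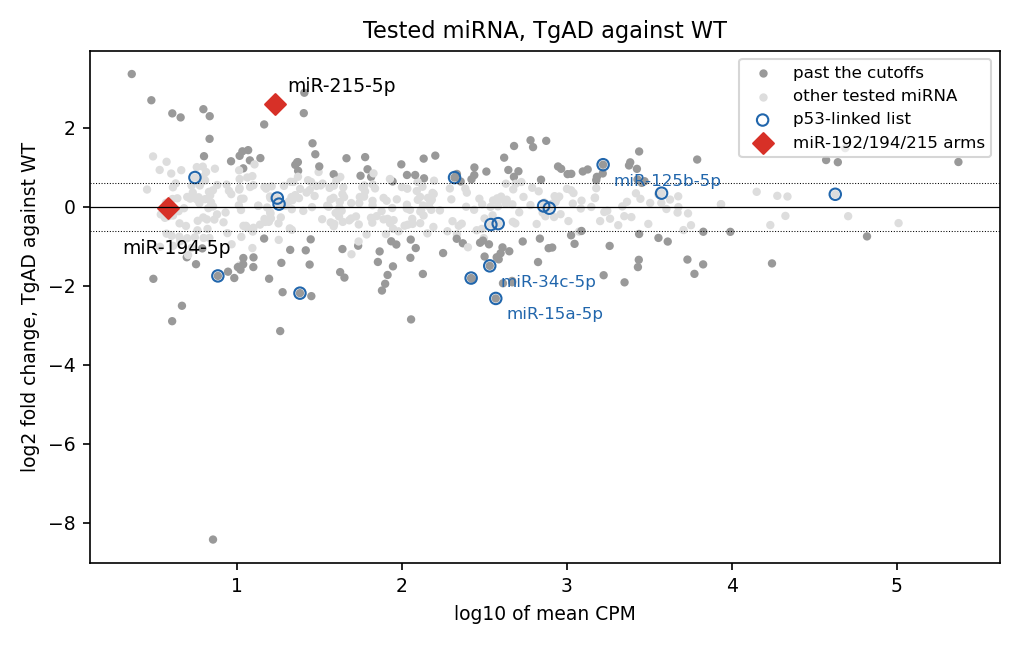
Log2 fold change (TgAD against WT, vertical axis) against the log10 of the mean level in CPM for the 496 tested miRNA, where dark points passed the cutoffs, dotted lines mark 0.6 in either direction, circles mark other p53-linked miRNA and red diamonds the 2 tested arms. miR-215-5p lies at 2.59 and miR-194-5p at -0.04, both at low levels.

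Other miRNA tied to p53 were counted from a list of 20 names drawn from textbook knowledge, of which 19 were listed in the count tables and 16 passed the filter. miR-605-5p was not analysed here. In the list, 2 miRNA were higher and 5 lower in TgAD by the cutoffs, 43.8% of the tested ones against 33.1% of all tested miRNA, and 9 did not pass. The median log2 fold change of the list was -0.01, against 0.03 for all tested miRNA. With total counts in place of TMM library sizes, which lowered the median of all tested miRNA by 0.27, 1 was higher and 6 lower. By the column names of the normalized table, 0 of the list and 0 of all 480 tested miRNA passed edgeR's quasi-likelihood test, with 54 miRNA at an unadjusted p under 0.05.

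Of 11 miRNA transcribed from loci that p53 binds, 8 were tested, 3 fell and none passed as higher, which is 37.5% called against 33.1% of all tested miRNA (17.3% lower). miR-15a-5p, which targets the survival factor Bcl2, had 1574 and 1641 reads in WT and 434 and 361 in TgAD, a log2 fold change of -2.32 (SE 0.311, adjusted p = 0.00934 by edgeR's quasi-likelihood test, with the Benjamini-Hochberg adjustment over all tested miRNA). miR-34c-5p, of the miR-34 family that represses cyclins and their kinases, had 1082 and 1584 reads in WT and 576 and 592 in TgAD, a log2 fold change of -1.49 (SE 0.245, adjusted p = 0.0106 by the same test in edgeR). In both, each TgAD library lay below each WT library, as in 32.5% of all tested miRNA. miR-200c-3p, which represses the Zeb transcription factors and is also among the epithelial markers, had 26 and 36 reads in WT and 12 and 11 in TgAD (log2 fold change -1.75, adjusted p = 0.0276 by edgeR). Without TgAD2 its value was -1.39 with an adjusted p of 0.116 by edgeR.

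The other miRNA of p53-bound loci did not pass. miR-34a-5p, the most studied p53 target among miRNA, had 1087 and 977 reads in WT and 1009 and 875 in TgAD, with a log2 fold change of -0.45 (adjusted p = 0.340 by edgeR). Without TgAD1 it passed the cutoffs, at -0.97 with an adjusted p of 0.0789 by edgeR. miR-34c-3p, from the same hairpin as miR-34c-5p, had a log2 fold change of 0.74 (SE 0.628, adjusted p = 0.427 by edgeR) at 10 to 29 reads. miR-34b-3p had 0.22, miR-145a-5p 0.07 and miR-107-3p 0.02 on the log2 scale, and these signs turned under some alternatives. miR-34b-5p and miR-141-3p, at no more than 5 reads in a library, were not tested.

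Of the 2 miRNA whose processing p53 is known to aid, miR-16-5p, which like miR-15a-5p targets Bcl2, fell from 970 and 1172 reads in WT to 428 and 316 in TgAD (log2 fold change -1.80, SE 0.337, adjusted p = 0.0175 by edgeR). It is made at 2 loci. miR-143-3p had 2067 and 2051 reads in WT and 2208 and 2981 in TgAD, with a log2 fold change of -0.04. Thus 1 of the 2 passed, as lower, beside 17.3% of all tested miRNA called lower and 33.1% called in either direction.

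Of 7 miRNA that act on p53 or on its regulators, 6 were tested, 2 rose and 1 fell, beside 15.7% of all tested miRNA called higher and 17.3% lower. miR-125b-5p, which targets the p53 message, had 1934 and 3846 reads in WT and 5893 and 9423 in TgAD, a log2 fold change of 1.07 (SE 0.265, adjusted p = 0.0336 by edgeR), and without WT1 it was 0.78 with an adjusted p of 0.104. miR-125b-5p is made at 2 loci. miR-504-5p, which also targets p53, had 350 and 474 reads in WT and 666 and 1119 in TgAD, a log2 fold change of 0.74 (adjusted p = 0.0397 by edgeR). With total counts as library size miR-504-5p was at 0.47 with an adjusted p of 0.241 by edgeR, and without WT1 or WT2 it was at 0.69 or 0.79 and did not pass. miR-29c-3p, of a family that represses collagens and inhibitors of p53, had 106 and 99 reads in WT and 18 and 42 in TgAD (log2 fold change -2.19, SE 0.344, adjusted p = 0.0104 by edgeR).

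The remaining tested miRNA of this group did not pass. miR-29a-3p, with the seed of miR-29c-3p, was at -0.42 on the log2 scale (adjusted p = 0.165 by edgeR). It passed with total counts as library size, at -0.68 with an adjusted p of 0.0843, and without TgAD1, at -0.65 with an adjusted p of 0.0872. miR-25-3p and miR-30d-5p, which target p53, had log2 fold changes of 0.35 and 0.32. miR-29b-3p had at most 1 read in a library.

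**Figure D5:**
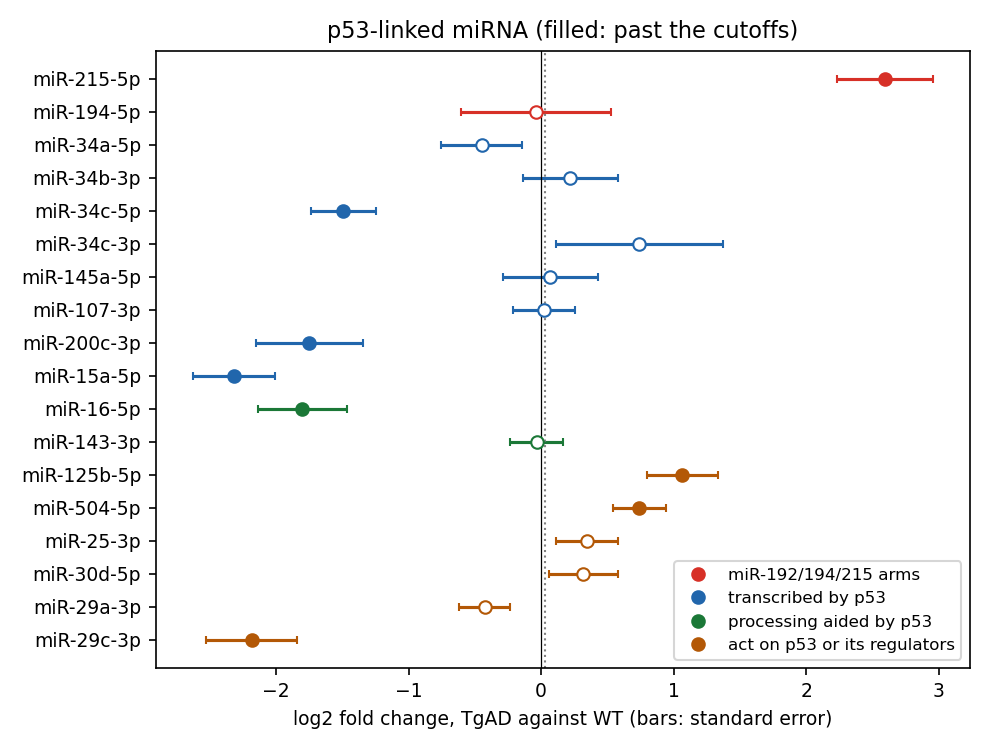
Log2 fold change (TgAD against WT, with its standard error) of the 16 tested p53-linked miRNA in their 3 groups by colour, beside miR-215-5p and miR-194-5p in red, with filled points past the cutoffs and a dotted line at the median of all tested miRNA (0.03). Of the list, 5 lie lower (from -2.32 to -1.49) and 2 higher (0.74 and 1.07). miR-215-5p, at 2.59, was chosen because it was higher in TgAD, so its place and its filled point are not a test.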

How the data were processed

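Small RNA of 2 WT and 2 TgAD libraries was analyzed, with groups taken from the sample labels. Reads trimmed of adapters were aligned by the authors to GRCm38 (Bowtie2, no mismatch) and assigned to mature miRNA of miRBase by HTSeq-count, and the authors deposited whole-number counts without normalization. Tool versions are not given in the sources used here. They also deposited a normalized signal per miRNA, the count divided by a size factor, and dividing by the value of 1 read gave whole reads, within 0.01, for 100% of its values. Reads recovered from it were used only in 1 alternative, chosen after seeing the data.

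Counts were fitted with edgeR 4.0.16 (limma 3.58.1, R 4.3.3), with TMM, filterByExpr and the quasi-likelihood test with genotype as the only factor, and the Benjamini-Hochberg adjustment ran over the 496 tested miRNA. DESeq2 1.42.0 was an alternative. The standard error is the log2 fold change divided by the square root of F. A two-sided exact permutation test of 2 against 2 libraries cannot go below 0.333 and was not used. Centred log2 CPM used a prior count of 2. Intervals and the floor of 3 reads cover counting error only, since the reads carry no molecular identifiers. Alternatives were other normalizations, filters, a replicate block and leaving out each library. The miRNA named are the 7 arms, the p53-linked list, the cell type markers and the 5 nearest profiles, with miR-15a-3p added as the other arm of a listed hairpin. The members and lists were chosen with earlier results of these data known. Sequences come from RefSeq and gene positions from GENCODE, both on GRCm38.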

Additional observations from a re-analysis of the deposited data

How the results depend on the processing

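Over the other normalizations, filters, tests and sets of libraries, 118 to 188 miRNA passed the cutoffs (164 as reported) and 5 to 9 of the p53-linked list passed (7 as reported). Total counts as library size left 165 calls but 26.1% of them higher, against 47.6%. With the reads recovered from the normalized table by column name, 0 miRNA, 0 arms and 0 of the list passed in edgeR, with the smallest adjusted p at 0.400. The direction then turned for miR-215-5p (-0.53), miR-34c-3p (-0.96), miR-145a-5p (-0.25), miR-107-3p (-0.36), miR-143-3p (0.46) and miR-467d-5p (-0.17), and the cause was not tested. Of 270 values for single miRNA under an alternative, 227 kept their direction and side of the cutoffs, 19 lost and 3 gained the call, and 21 turned. Total counts turned miR-34b-3p (-0.011), miR-145a-5p (-0.19) and miR-107-3p (-0.24). miR-107-3p also turned with no filter (-0.017) and with DESeq2 (-0.0044).

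Leaving out each library in turn leaves 1 library in a genotype, which is assumed to vary like the others. The log2 fold changes then lay between -0.84 and 0.55 for miR-194-5p, -0.24 and 0.56 for miR-34b-3p, -0.30 and 1.41 for miR-34c-3p, -0.31 and 0.42 for miR-145a-5p, -0.20 and 0.29 for miR-107-3p, and -0.20 and 0.15 for miR-143-3p. miR-467d-5p lost its call without WT2 or TgAD1 and miR-6906-3p without WT2.

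With the replicate number as a block, 188 miRNA passed, and miR-215-5p was at 2.57 and miR-194-5p at -0.09. The deviations of same-numbered libraries correlated at 0.216, and with 2 pairs the numbers are not shown to pair the libraries. The depth left 5 of the 7 arms at or under 3 reads, and no setting can show a difference between the genotypes for them.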
